A study of Mus musculus with 16 samples.

Results

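The genes described here encode the factors that start and extend protein chains on the ribosome. They were taken as every entry of the deposited gene table whose symbol begins with Eif1 to Eif6, Eef1 or Eef2, which gave 62 entries of 18138. The rule reads symbols alone and uses no measured value. By symbol they fall into eIF2 with its exchange factor eIF2B and the eIF2 kinases (12 entries), eIF3 (14), eIF4 with the 4E-BP repressors (16), eIF1, eIF5 and eIF6 (8) and elongation, the entries named Eef1 or Eef2 (8). The remaining 4 entries, Eif2c1 to Eif2c4, carry an older name of the Argonaute genes, which act in RNA silencing and are not translation factors.

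D10 is a mouse Th2 cell line, a fast-growing variant of a single Th2 clone, kept in interleukin 2. All cells were of this line. They were left untreated (control) or were given 10 µM Akti1/2, an allosteric inhibitor of the kinases Akt1 and Akt2, for 1 h, and were then stimulated through CD3 and CD28 for 0, 2, 6 or 12 h. The comparisons ask how these transcripts respond to stimulation and how that response differs with Akt inhibited. The methods call the control untreated, and the study's results mention a solvent. Each of the 8 groups was measured on 2 arrays, 16 in all, on 2 chips that each held 1 array of every group. Since nothing states that the duplicates were separate cultures, p-values measure the spread between these arrays, which may be technical.

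Translation begins when eIF2 brings the initiator transfer RNA to the small ribosomal subunit, with eIF3 as scaffold, while eIF4F binds the messenger RNA cap. The eIF4F complex holds the cap-binding protein eIF4E, the scaffold eIF4G and the helicase eIF4A, and 4E-BP proteins keep eIF4E from eIF4G unless they are phosphorylated by mTOR, a kinase downstream of Akt. The elongation factors eEF1 and eEF2 then deliver aminoacyl transfer RNAs and move the ribosome along. T cells raise protein synthesis sharply on activation. Array signals measure transcripts, not phosphorylation or protein amount, and in bulk samples less RNA per cell and fewer cells of a kind cannot be told apart.

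The median raw intensity per array was 119.4 to 148.6, close to the negative controls, and 6288 to 6907 genes per array were above background (detection p under 0.01, the detection p being the share of 798 negative controls at least as bright as the gene). All 9 T cell and Th2 markers were above background, 8 of them on 16 arrays and Cd4 on 13. Of 14 markers of other cells with an entry, 12 were at background on all arrays, Ms4a1 was above it on 1 and the globin gene Hba-a1 on 16 (251.7 to 1944.9). The part of Hba-a1 in the values below was not tested. Log2 intensities of replicate arrays correlated at 0.9855 to 0.994 over the genes tested.

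Of the 62 entries, 47 were above background on at least 2 arrays and were tested, 45 of them above it on all 16. Eif4e, the gene of the cap-binding protein, was above background on 15 arrays, and Eif3s1 (now Eif3j1) on 7. Another 13 entries were above background on none: Eif2c1, Eif2c3, Eif2c4, Eif1ay, Eif5a2, Eif5b, Eif2ak4, Eif2s1, Eif2s3y, Eif3s10, Eif3s6, Eif4e1b and Eef1a2. The genes Eif4ebp3 and Eef2k, the latter encoding the kinase that inactivates eEF2, were above it on 1 array each. A probe at background does not show that its gene is silent: Eif3s10 and Eif3a are entries of the same gene, and Eif3a was above background on all arrays. The genes Eif2s1, for the alpha subunit of eIF2, and Eef2k therefore have no measured change here. By group, 9 of 12 entries of eIF2, 12 of 14 of eIF3, 14 of 16 of eIF4, 5 of 8 of eIF1, eIF5 and eIF6, 6 of 8 of elongation and 1 of 4 of Argonaute were tested.

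A feature that the choice of genes did not use is the promoter sequence. In the RefSeq promoter windows (GRCm38.p6, 250 bases before to 50 after each start site), the E-box CACGTG, which is its own reverse complement and is bound by Myc and Max, lay in 14 of 60 windows of these genes (23.3%), against 7.15% of 32851 windows in the table. By gene this was 12 of 45 (26.7%) against 8.09% of 27025. That reference holds every gene of the promoter table, including genes at background in these cells. The share among the genes tested here was not taken, and the excess was not tested. The element TTGCATCA, read on both strands and known from C/EBP and ATF proteins, lay in 0 of the 60 windows, against 0.895% of all. A match is a run of letters and not a shown site. The stretches below are from 5 genes whose transcript levels the results turn on, 3 that were lower and 2 that were higher with Akti1/2 at 12 h. They are written 5′ to 3′ with the E-box in capitals, which begins between positions -189 and -43 from the start site. A single motif per gene is shown. The Eif4g1 window holds 2, and Eif5a has another at a different place. The Eif5a motif shown begins at -74 or -185, depending on the start site.
Eif4g1, chr16:20672633-20672718, plus strand: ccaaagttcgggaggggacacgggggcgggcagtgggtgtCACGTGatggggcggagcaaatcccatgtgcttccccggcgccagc
Eif4a1, chr11:69672567-69672652, minus strand: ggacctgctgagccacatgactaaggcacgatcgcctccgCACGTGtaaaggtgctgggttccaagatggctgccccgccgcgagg
Eif5a, chr11:69921415-69921500, minus strand: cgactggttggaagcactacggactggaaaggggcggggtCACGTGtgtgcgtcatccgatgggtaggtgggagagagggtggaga
Eef2, chr10:81176548-81176633, plus strand: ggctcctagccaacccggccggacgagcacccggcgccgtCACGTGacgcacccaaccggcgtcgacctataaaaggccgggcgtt
Eif3f, chr7:108934307-108934392, plus strand: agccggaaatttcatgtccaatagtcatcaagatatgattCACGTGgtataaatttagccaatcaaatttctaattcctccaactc
Of the 10 tested entries whose promoter window holds CACGTG, 2 were higher and 4 lower in Akti1/2-treated than in control cells at 12 h. Among the 24 tested entries with a window that lacks it, 4 were higher and 8 lower, and over all genes tested 24.2% were higher and 24.8% lower. Both directions occurred with and without the letters. For the other 13 tested entries no window was matched.

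Stimulation alone moved a small share of these transcripts at 2 h and more at 6 h. A gene was called at an adjusted p under 0.05 in limma, with Benjamini-Hochberg adjustment over the 7395 genes tested, and changes are log2 differences after background correction and quantile normalization. Where a call is said below to be kept or lost, this refers to the same threshold in up to 7 other settings of the fit and in fits without each array. In control cells at 2 h, 1 of 47 members passed (2.13%; 1 higher, 0 lower), against 10.3% of all genes (4.42% higher, 5.86% lower). At 6 h, 13 passed (27.7%; 10 higher, 3 lower), against 27.6% of all genes (12.1% higher, 15.4% lower). At 12 h, 8 passed (17.0%; 6 higher, 2 lower), against 27.8% (12.7% higher, 15.1% lower). The share called was thus near the background at 6 h and below it at 2 and 12 h, with more rises than falls among the calls at 6 and 12 h. The members' median change was -0.029, 0.173 and 0.123 at 2, 6 and 12 h, beside -0.021, -0.018 and -0.011 over all genes. Mean scaling, in which arrays are brought to a common mean log2 value in place of quantile normalization, gave 0, 4 (3 higher, 1 lower) and 7 calls (6 higher, 1 lower), and quantile normalization without background correction gave 3 higher and 2 lower at 2 h.

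The member called in control cells at 2 h was Eif3k, for a subunit of eIF3, higher by 0.61 (standard error 0.17), and its changes at 6 and 12 h were 0.51 and 0.58. Its call at 2 h was lost without each of the 4 arrays (adjusted p up to 0.285) and that at 6 h without 2 of 4 (up to 0.356). At 12 h the largest rise called was 0.70, of Eef1e1 (standard error 0.12, adjusted p = 0.00123, limma), for a scaffold protein of the aminoacyl transfer RNA synthetase complex. Genes of eIF2 rose as well, Eif2s2 (beta subunit) by 0.52 and Eif2b4 by 0.55 at 12 h. The largest fall among the members called was that of Eif4e3, for a relative of eIF4E that binds the cap, with changes of -1.21 and -0.99 at 6 and 12 h. Without any 1 of the 4 arrays behind the comparison at 6 h, 4 to 6 members passed in place of 13.

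With Akti1/2 present, more members passed than in control cells at 2 and 12 h and fewer at 6 h, and the difference between these counts was not tested. At 2 h, 16 of 47 members passed (34.0%; 10 higher, 6 lower), against 38.7% of all genes (17.8% higher, 20.9% lower). At 6 h, 10 passed (21.3%; 7 higher, 3 lower), against 33.3% (15.5% higher, 17.9% lower). At 12 h, 20 passed (42.6%; 9 higher, 11 lower), against 44.5% (21.1% higher, 23.3% lower). None of these shares was above the background. Under mean scaling, the calls at 2 h were 4 higher and 6 lower and those at 6 h were 5 higher and 1 lower, and without background correction those at 6 h were 8 higher and 7 lower.

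**Figure D1:**
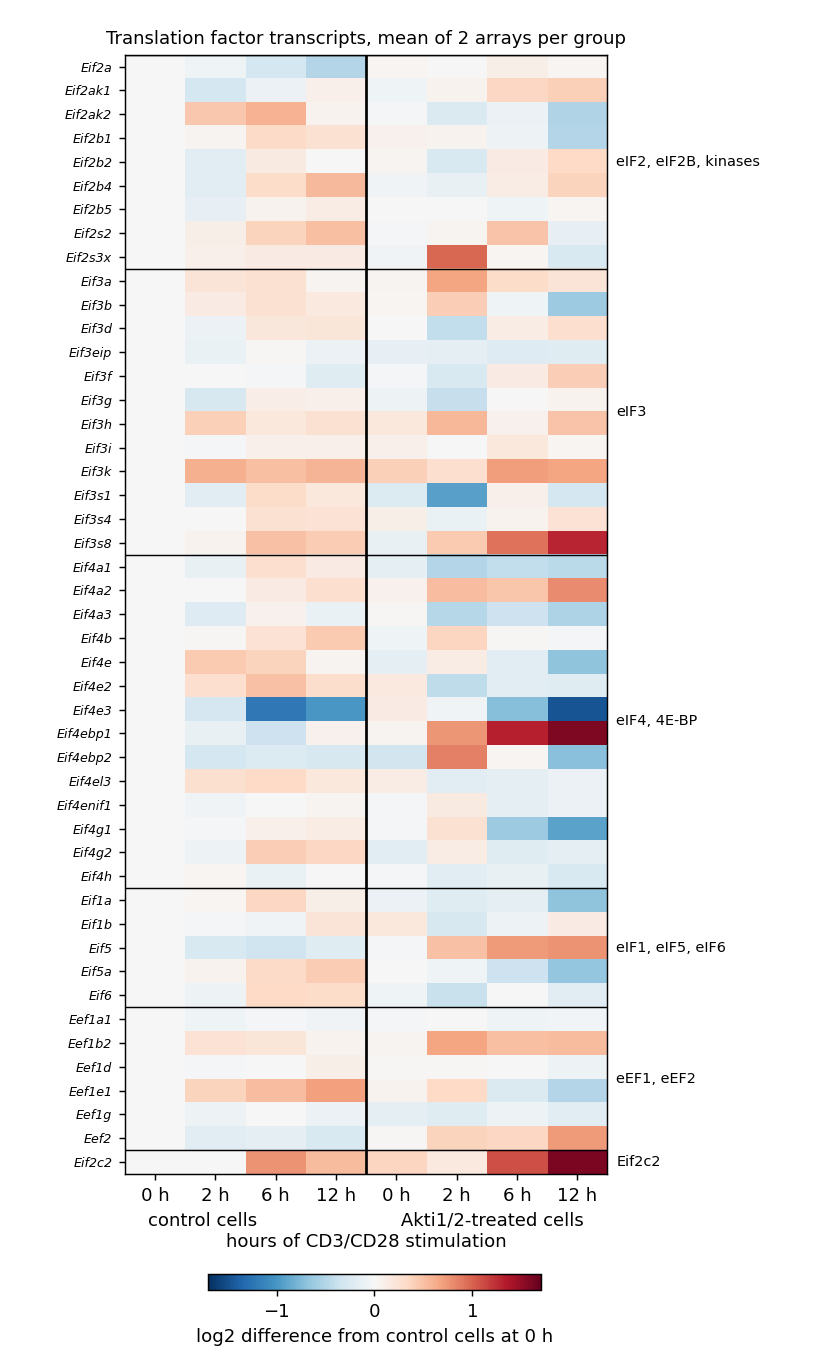
Mean log2 intensity of the 47 tested entries (rows, by role) in the 8 groups (columns, hours of CD3/CD28 stimulation in control and Akti1/2-treated cells), as the difference from control cells at 0 h, with 2 arrays per group and the color scale in log2 units. The deepest red at 12 h with Akti1/2 is in Eif4ebp1, Eif2c2 and Eif3s8 and the deepest blue in Eif4e3.

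Before stimulation no member passed. At 0 h, limma called 0 of 47 members different between Akti1/2-treated and control cells (0 higher, 0 lower), against 0.0541% of all genes (0.0406% higher, 0.0135% lower), and 1 member, Eif3k, had an unadjusted p under 0.05. The differences ran from -0.32 to 0.41, and by the J5 score, which has no error term, 2 entries lay beyond a score of 20. At 2 h, 12 members differed (25.5%; 8 higher, 4 lower), against 28.4% of all genes (13.5% higher, 14.9% lower). At 6 h, 18 differed (38.3%; 6 higher, 12 lower), against 37.6% (18.8% higher, 18.8% lower). At 12 h, 25 differed (53.2%; 9 higher, 16 lower), against 49.0% (24.2% higher, 24.8% lower). The number of members that differed was thus close to the background at 6 and 12 h, and among those called more were lower than higher. The member median was 0.013, -0.099 and -0.147 at 2, 6 and 12 h, beside -0.006, -0.009 and -0.019 over all genes.

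The split at 2 h depended on the scaling. Under mean scaling, 4 members were higher and 7 lower at 2 h, where the median of all genes moved to -0.122 and that of the members to -0.191. At 6 h the same scaling gave 3 higher and 12 lower, and at 12 h 6 higher and 15 lower. The excess of lower over higher calls at 6 and 12 h was therefore present under both scalings. That of higher over lower calls at 2 h was not. Of all genes called at 2 h under mean scaling, 29.9% were higher, beside 36.4% of the member calls. Under quantile normalization these shares were 47.6% and 66.7%. The members' share of higher calls at 2 h was thus above that of all genes under both scalings, a difference that was not tested. Their median at 2 h lay below that of all genes under mean scaling.

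Subtracting the change since 0 h in control cells from that in Akti1/2-treated cells gives the interaction of inhibitor and stimulation, called here the difference in response. At 2 h, 5 of 47 members passed (10.6%; 4 higher, 1 lower), against 8.40% of all genes (4.23% higher, 4.16% lower). At 6 h, 10 passed (21.3%; 3 higher, 7 lower), against 19.5% (10.3% higher, 9.24% lower). At 12 h, 17 passed (36.2%; 6 higher, 11 lower), against 32.5% (16.3% higher, 16.2% lower). In all, 20 members passed at 1 or more times (42.6%, against 39.6% of all genes), and 13 of the 47 passed in none of the 13 comparisons (27.7%, against 17.9%). Mean scaling gave 1 higher and 0 lower at 2 h, 2 each way at 6 h and 4 higher and 5 lower at 12 h. The member calls at 6 h were thus even under it. Of all genes called under mean scaling, 66.5% and 57.5% were higher at 6 and 12 h, beside 50.0% and 44.4% of the member calls. The member medians were -0.112 and -0.222, beside 0.065 and 0.039 over all genes. Without background correction the calls at 2 h were 5 higher and 3 lower.

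**Figure D2:**
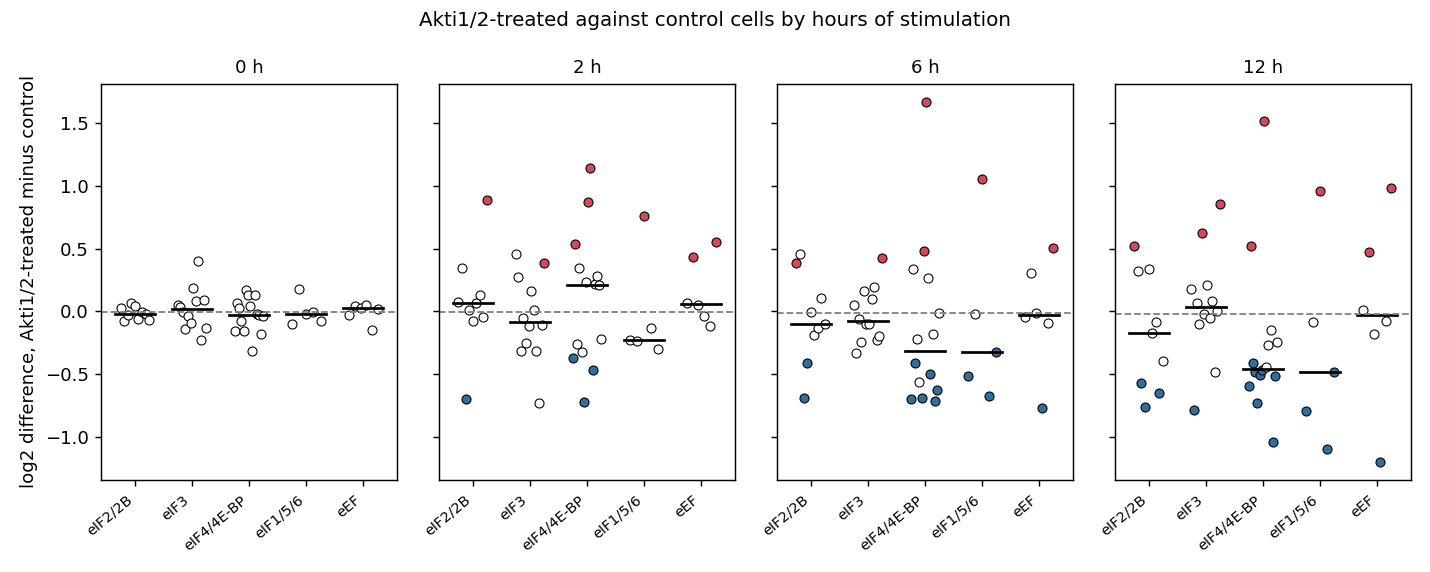
Log2 difference of Akti1/2-treated minus control cells for each tested member at 0, 2, 6 and 12 h of stimulation, by role. Red and blue points passed as higher and lower, open points did not pass, black bars are group medians and the dashed line is the median of all genes. All points are open at 0 h, and at 12 h 8 of 14 members of the eIF4 group are blue.

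The eIF4 group held 8 of the 16 members that were lower in treated cells at 12 h. Of its 14 tested members 10 passed at that time, where 49.0% of all genes passed and 24.8% were lower. At 2 and 6 h 42.9% and 57.1% of the group passed, against 28.4% and 37.6% of all genes. Its median difference between Akti1/2-treated and control cells was 0.212 at 2 h, -0.317 at 6 h and -0.458 at 12 h. At 2 h 3 of 14 members were higher and 3 lower, at 6 h 2 were higher and 6 lower, and at 12 h 2 were higher and 8 lower. These are counts of entries and not of genes, since Eif4e2 and Eif4el3 are entries of the same gene. Both had lower mean log2 intensities in treated than in control cells at 2 and 6 h. Mean scaling gave 2 higher and 4 lower at 2 h, then 2 higher and 6 lower at 6 h and 1 higher and 6 lower at 12 h, with a median of -0.44. At 12 h the 2 higher members were Eif4ebp1 and the helicase gene Eif4a2, which opposed its close relative Eif4a1.

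Eif4ebp1 encodes 4E-BP1, the repressor of cap-dependent initiation. In control cells its 2 arrays read log2 intensities of 11.29 and 11.08 at 0 h, 11.12 and 11.004 at 2 h, 10.89 and 10.79 at 6 h, and 11.26 and 11.26 by 12 h. In Akti1/2-treated cells they read 11.26 and 11.20 at 0 h, 11.88 and 11.98 at 2 h, 12.64 and 12.39 at 6 h, and 12.74 and 12.82 by 12 h. The treated arrays matched the control at 0 h, and all 6 treated arrays from 2 h on lay above all 8 control arrays. The difference between treated and control cells was 0.87, 1.67 and 1.52 at 2, 6 and 12 h (standard error 0.12 each), 3.19-fold at 6 h (adjusted p = 1.2e-06, limma). Its responses differed by 0.83, 1.63 and 1.47 (standard error 0.16 each). At 2 h it was lost without replicate 1 of control cells at 0 h (adjusted p = 0.0578, limma) and under mean scaling (adjusted p = 0.16).

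Eif4ebp2, which encodes 4E-BP2, passed in treated cells at 2 h. Its control arrays lay between 7.78 and 8.10 at all times. The treated arrays read 7.51 and 8.05 at 0 h, 9.07 and 8.82 at 2 h, 7.86 and 8.40 at 6 h, and 7.19 and 7.57 by 12 h. Both treated arrays at 2 h stood above the other 14, and the treated replicates at 0 and 6 h were well apart from each other. At 2 h the responses differed by 1.46 (standard error 0.28, adjusted p = 0.0114, limma), a call kept in every other fit. Treated minus control cells differed by 0.27 at 6 h (95% interval -0.17 to 0.70) and by -0.45 at 12 h (-0.88 to -0.01), neither of which passed.

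Transcripts of the scaffold eIF4G1 and the helicase eIF4A1 were lower with Akti1/2. Eif4g1, for the scaffold eIF4G1, read 8.33 and 8.52 at 0 h, 8.53 and 8.26 at 2 h, 8.50 and 8.54 at 6 h, and 8.59 and 8.51 by 12 h in control cells. With Akti1/2 it read 8.38 and 8.40, 8.23 and 9.13, 7.87 and 7.73, and 7.50 and 7.53 at the same times. The 4 treated arrays at 6 and 12 h lay below the other 12, while the treated duplicates at 2 h were well apart. Treated minus control cells differed by -0.72 and -1.04 at 6 and 12 h (standard error 0.21 each), 2.06-fold at 12 h (adjusted p = 0.00155, limma). The 12 h call for the response of Eif4g1, -1.01, was lost without any 1 of 6 of the 8 arrays behind it (adjusted p up to 0.0779), and the call at 6 h without 3 of 4 (up to 0.0905).

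Eif4a1, for the helicase eIF4A1, was lower with Akti1/2 at every time after stimulation. Control arrays read 13.08 and 13.14 at 0 h, 13.02 and 12.95 at 2 h, 13.38 and 13.41 at 6 h, and 13.27 and 13.24 by 12 h. Treated arrays read 12.90 and 13.01, 12.68 and 12.54, 12.80 and 12.59, and 12.58 and 12.74. All treated arrays from 2 h on were below all control arrays, and at 0 h they were close to them. The difference was -0.37, -0.70 and -0.60 at 2, 6 and 12 h (standard error 0.11 each), and the difference in response passed at 6 h (-0.54) and 12 h (-0.44). Both of those calls were lost with most single arrays left out, 6 of 8 at 6 h and 7 of 8 at 12 h (adjusted p up to 0.0964 and 0.152), and the call at 2 h with 3 of 4 (up to 0.145). Eif4a2, for the sister helicase, differed by 0.54 and 0.52 at 2 and 12 h in the opposite direction, and both calls were lost under mean scaling (adjusted p = 0.252 and 0.144).

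Relatives of the cap-binding protein differed among themselves. Eif4e itself, a dim signal of 151.2 to 240.0 in raw intensity, passed in 1 comparison, lower in treated than in control cells at 12 h by a log2 difference of -0.73 (standard error 0.28, adjusted p = 0.0457, limma), and this call was lost without 3 of the 4 arrays (adjusted p up to 0.291), under the replicate block (0.0564) and without background correction (0.0826). Eif4e2, for a competing cap-binding protein that represses translation, was more even. Its treated arrays from 2 h on lay between 7.53 and 7.88 and the other 10 between 7.95 and 8.56. For Eif4e2 the difference in response was -0.89, -0.86 and -0.68 at 2, 6 and 12 h, kept with every array left out in turn but lost at 2, 6 and 12 h under mean scaling (adjusted p = 0.05, 0.0747 and 0.113). For Eif4el3, an older name of the same gene on a separate entry, the difference in response passed at 6 h (-0.63) but not at 2 or 12 h. This entry was the brighter, with a mean raw intensity of 2537.3 against 390.6 for Eif4e2. Its call at 6 h was lost without 6 of 8 arrays (adjusted p up to 0.157, limma). Eif4e3 fell in both arms at 6 and 12 h, with changes of -0.86 and -1.60 with Akti1/2, and each of these calls was kept in every other fit. Its mean was higher in treated than in control cells at 6 h (8.03 against 7.54, treated arrays 7.75 and 8.30). At 12 h it was lower (7.29 against 7.76). For Eif4e3 the difference in response at 12 h, -0.60, was lost without each of the 8 arrays (adjusted p up to 0.143).

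Among the rest of the group, Eif4a3, Eif4b and Eif4g2 were lower in treated cells at 12 h by differences of -0.41, -0.48 and -0.52. The calls of Eif4a3 and Eif4b were lost without each of the 4 arrays and that of Eif4g2 without 2 of 4 (adjusted p up to 0.126, 0.0872 and 0.128). These genes encode a helicase of the exon junction complex, a cofactor of eIF4A and a relative of eIF4G that works without the cap. Eif4h, another cofactor of eIF4A, and Eif4enif1, which carries eIF4E into the nucleus, passed in no comparison.

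**Figure D3:**
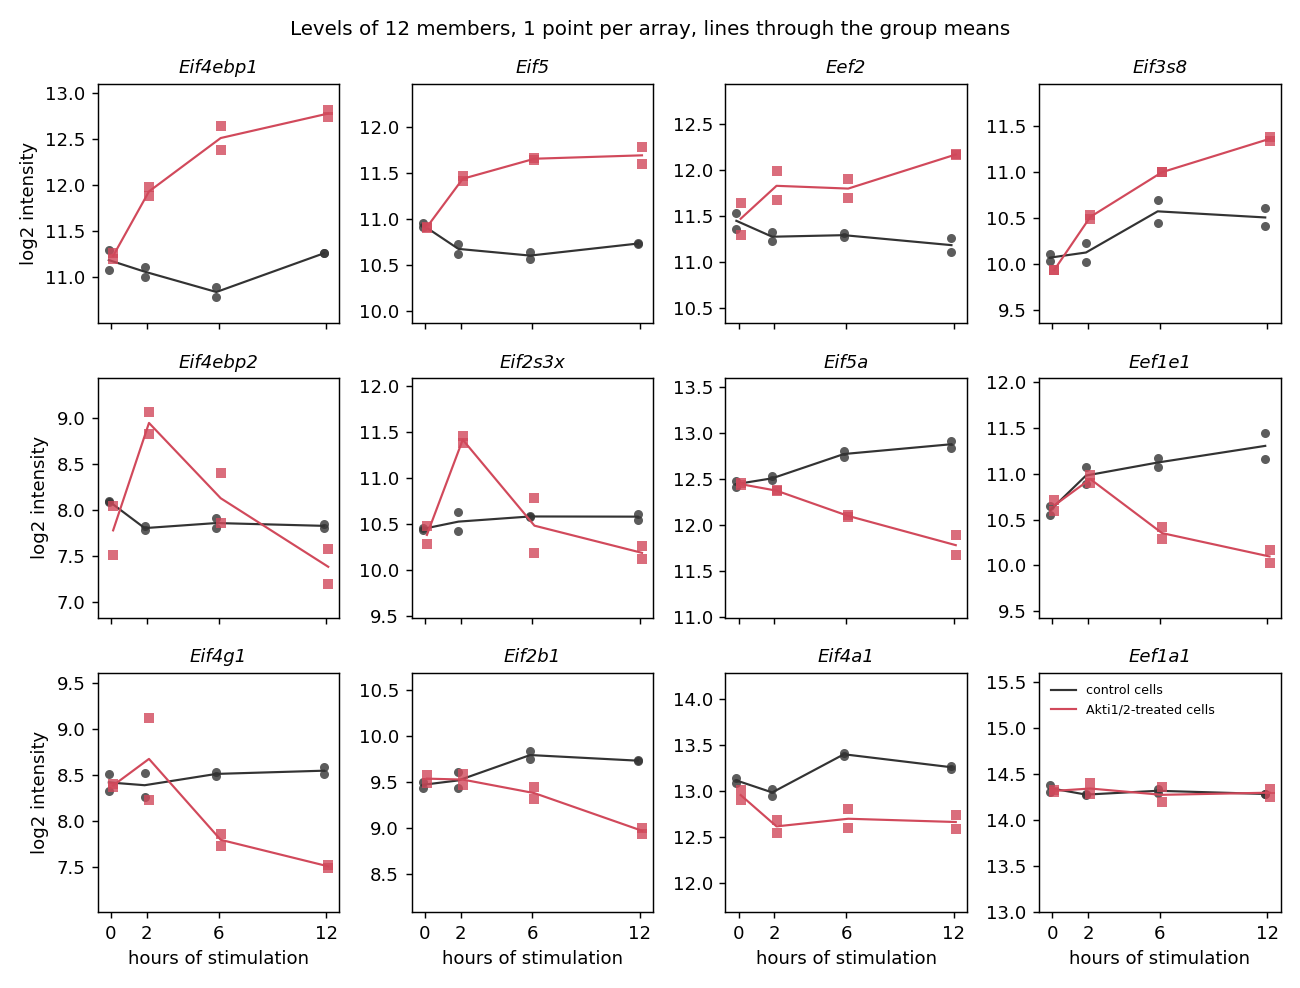
Log2 intensity of 12 members against hours of stimulation in control (black circles) and Akti1/2-treated cells (red squares), 1 point per array and lines through the means of 2 arrays. Every panel spans the same log2 range about its own middle, so that slopes but not heights compare between panels. Treated and control arrays lie close together at 0 h in all panels but Eif4ebp2. At 12 h the treated arrays lie above the control arrays in the top row and below them in all other panels but Eef1a1. Of these lower differences at 12 h, those of Eif4ebp2 and Eif2s3x did not pass.

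The eIF2 group had calls on both sides at 12 h. Treated against control cells gave 1 higher and 1 lower of 9 at 2 h, 1 higher against 2 lower at 6 h, and 1 higher against 3 lower at 12 h, with medians of 0.063, -0.1 and -0.17. At 2, 6 and 12 h, 22.2%, 33.3% and 44.4% of the 9 passed, against 28.4%, 37.6% and 49.0% of all genes. Under mean scaling, the calls were 0 higher and 2 lower at 6 h, with 0 higher and 4 lower at 12 h. The 3 lower members at 12 h, Eif2b1, Eif2s2 and Eif2ak2, belong to different parts of this pathway.

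Eif2b1 encodes the alpha subunit of eIF2B, which recharges eIF2 with GTP and is held back by phosphorylated eIF2. Control arrays read 9.49 and 9.44 at 0 h, 9.60 and 9.43 at 2 h, 9.83 and 9.75 at 6 h, and 9.73 and 9.73 by 12 h. Treated arrays read 9.49 and 9.58, 9.46 and 9.59, 9.44 and 9.31, and 8.93 and 9.0. The groups overlapped at 0 and 2 h, and both treated arrays at 12 h were the lowest of the 16. At 12 h the responses of Eif2b1 differed by -0.83 (standard error 0.15, adjusted p = 0.00113, limma), a call kept in every other fit. At 6 h the difference was -0.48, a call lost with 7 of the 8 arrays left out singly (adjusted p up to 0.119).

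The other subunits are given by their own values. Eif2b4 (delta subunit) rose by 0.44 at 12 h with Akti1/2 and by 0.55 without, calls lost without 2 and 1 of 4 arrays (adjusted p up to 0.12 and 0.064). Eif2b2 and Eif2b5, the latter for the catalytic subunit, passed in no comparison, and Eif2b5 differed between treated and control cells at 12 h by -0.09 (95% interval -0.31 to 0.14). Eif2s2 was lower in treated cells at 12 h, by -0.65, and its response differed by -0.63 (adjusted p = 0.00737, limma), lost under mean scaling (0.0659). At 6 h it was above its 0 h level in both arms. Its means at 0, 6 and 12 h were 9.72, 10.22 and 9.60 with Akti1/2 and 9.74, 10.12 and 10.25 without.

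Eif2s3x, the X-linked gene of the gamma subunit of eIF2, moved in treated cells at 2 h. Its treated arrays at 2 h read 11.45 and 11.38, and the other 14 arrays read 10.11 to 10.78. Both were above every other array, and the treated duplicates at 6 h read 10.18 and 10.78. The change with Akti1/2 was 1.03 (standard error 0.16, adjusted p = 5.92e-04, limma), kept with every array left out. The difference in response was 0.95 (standard error 0.23, adjusted p = 0.0271, limma), a call lost without 7 of the 8 arrays (adjusted p up to 0.0936) and under mean scaling (0.131).

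Of the eIF2 kinases, Eif2ak2 encodes PKR, which responds to double-stranded RNA. Control arrays read 8.24 and 8.46 at 0 h, 8.86 and 8.74 at 2 h, 9.03 and 8.85 at 6 h, and 8.33 and 8.48 by 12 h, and treated arrays 8.26 and 8.37, 8.24 and 7.96, 8.16 and 8.34, and 7.74 and 7.93. The control arrays were higher at 2 and 6 h than at 0 h, and no treated array after 0 h exceeded its control counterparts. Treated minus control cells differed by -0.70, -0.69 and -0.57 at 2, 6 and 12 h (standard error 0.14 each), each kept with every array left out. The difference in response, -0.66 at 6 h and -0.54 at 12 h, was lost without 5 and 6 of 8 arrays (adjusted p up to 0.115 and 0.166) and, at 12 h, with the replicate block (0.0571). Eif2ak1, for the heme-regulated kinase, passed in no comparison. Eif2a, for a separate factor that can deliver the initiator transfer RNA, fell in control cells by 0.50 at 12 h and was higher in treated than in control cells by 0.52, lost under mean scaling (adjusted p = 0.0642).

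Few eIF3 genes differed with the inhibitor. Of 12 tested, 1 was higher and 0 lower in treated than in control cells at 2 h, 1 was higher and 0 lower at 6 h, and 2 were higher and 1 lower at 12 h. These were 8.3%, 8.3% and 25.0% of the 12, against 28.4%, 37.6% and 49.0% of all genes at the same times. The median difference of the eIF3 members at 12 h was 0.037, and -0.098 under mean scaling, so that its sign depended on the scaling.

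Eif3s8, now Eif3c, encodes a core subunit and had the largest rise among the eIF3 members called. Control arrays read 10.11 and 10.03 at 0 h, 10.22 and 10.02 at 2 h, 10.69 and 10.45 at 6 h, and 10.40 and 10.60 by 12 h. Treated arrays read 9.94 and 9.93, 10.48 and 10.54, 10.99 and 10.99, and 11.38 and 11.33. Both arms were higher at 6 and 12 h than at 0 h, and the treated arrays at each time from 2 h on were above the control arrays of that time. The change from 0 to 12 h was 0.44 without and 1.42 with Akti1/2, and the difference in response was 0.99 (standard error 0.16, adjusted p = 7.48e-04, limma). Its response at 6 h differed by 0.56, a call lost without 7 of the 8 arrays (adjusted p up to 0.122), and the change in control cells at 12 h was lost without 2 of 4 (up to 0.122).

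Eif3b, for another core subunit, was lower in treated cells at 12 h by -0.79, its treated arrays at 9.01 and 8.84 and the other 14 at 9.46 or above, and its response differed by -0.82 (standard error 0.18, adjusted p = 0.00476, limma). Eif3f was higher at 12 h by 0.63, its treated arrays at 13.66 and 13.40 and the other 14 at 13.33 or below. For Eif3f the difference in response, 0.66, was lost without replicate 1 of control cells at 0 h or replicate 1 of treated cells at 12 h (adjusted p up to 0.055) and under mean scaling (0.154). Eif3d, for a subunit that can itself bind the cap, passed only for its change at 2 h with Akti1/2 (-0.42, standard error 0.13), lost without 2 of the 4 arrays (adjusted p up to 0.179). It differed between treated and control cells at 12 h by 0.07 (95% interval -0.21 to 0.35). Eif3eip, Eif3h, Eif3i, Eif3s1 and Eif3s4, an older name of Eif3g on its own entry, passed in no comparison. The entry Eif3g passed in 1 comparison, lower at 2 h than at 0 h with Akti1/2 (means of 12.30 and 12.60).

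Eif5 and Eif5a, similar in name but not in function, were higher and lower, respectively, with Akti1/2. In the group of eIF1, eIF5 and eIF6, treated against control cells gave 1 higher and 0 lower of 5 at 2 h and 1 higher and 3 lower at both 6 and 12 h, the higher member being Eif5 each time. Thus 1 of 5 passed at 2 h, against 28.4% of all genes. At 6 and 12 h 4 of 5 passed, against 37.6% and 49.0% of all genes. Under mean scaling 1 was higher and 1 lower at 2 h, and the counts at 6 and 12 h were as before.

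Eif5 encodes the protein that triggers GTP hydrolysis by eIF2 at the start codon. Control arrays read 10.96 and 10.91 at 0 h, 10.62 and 10.73 at 2 h, 10.65 and 10.56 at 6 h, and 10.73 and 10.73 by 12 h. Treated arrays read 10.91 and 10.92, 11.46 and 11.41, 11.65 and 11.66, and 11.60 and 11.79. From 2 h on, every treated array was above every control array. The difference was 0.76, 1.05 and 0.96 at 2, 6 and 12 h (standard error 0.10 each; adjusted p = 9.9e-06 at 6 h, limma). The responses of Eif5 differed by 0.79, 1.08 and 0.98, kept with every array left out in turn, and lost at 2 h under mean scaling (adjusted p = 0.145).

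Eif5a encodes the hypusine-bearing factor that helps ribosomes through stalling peptides and aids elongation and termination. Control arrays read 12.48 and 12.41 at 0 h, 12.49 and 12.53 at 2 h, 12.75 and 12.81 at 6 h, and 12.92 and 12.85 by 12 h. Treated arrays read 12.44 and 12.46, 12.37 and 12.38, 12.09 and 12.12, and 11.68 and 11.89. The control series went up and the treated series down, and the treated arrays at 6 and 12 h were below all other arrays. Control cells rose by 0.43 and treated cells fell by 0.66 from 0 to 12 h, and the treated cells were 2.14-fold lower at 12 h (log2 difference -1.10, standard error 0.10, adjusted p = 3.16e-06, limma). The difference in response, -0.67 at 6 h and -1.10 at 12 h, was kept in every other fit. The rise in control cells at 12 h was lost without replicate 2 at 0 h or replicate 1 at 12 h (adjusted p up to 0.0539).

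Eif1a, for a factor that helps scan for the start codon, and Eif6, for one that keeps the ribosomal subunits apart, were lower as well. Eif1a differed by -0.51 and -0.79 at 6 and 12 h, with a response that differed by -0.69 at 12 h (adjusted p = 0.00555, limma), lost under mean scaling (0.0745). Eif6 differed by -0.32 and -0.48 at 6 and 12 h, and its difference in response did not pass. The call at 6 h was lost without 3 of 4 arrays (adjusted p up to 0.218). Eif1b passed only for its change at 2 h with Akti1/2 (-0.45, standard error 0.14), lost without each of the 4 arrays (adjusted p up to 0.131).

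Among the entries named for elongation factors, Eef2 was higher and Eef1e1 lower in treated cells. Eef1e1, placed here by its symbol, belongs to the synthetase complex and is no elongation factor, and it gave the lower calls of the group. Of 6 tested, 2 were higher and 0 lower in treated than in control cells at 2 h, 1 each way at 6 h, and 2 were higher and 1 lower at 12 h. These were 33.3%, 33.3% and 50.0% of the 6 at 2, 6 and 12 h, against 28.4%, 37.6% and 49.0% of all genes. Mean scaling gave 0 higher and 0 lower, 0 higher and 1 lower, and 1 higher and 1 lower at these times. Eef1a1, for the carrier of aminoacyl transfer RNA, and Eef1g, for the gamma subunit of its exchange factor, held the brightest signals of all members, up to 25255 in raw intensity, where the table reaches 37353. Eef1a1 read 14.27 to 14.38 in control and 14.19 to 14.40 in treated cells, and it differed by 0.01 at 12 h (95% interval -0.20 to 0.23). Eef1g differed by -0.07 at 12 h (95% interval -0.32 to 0.17). These intervals bound the log2 difference on the normalized scale, and Eef1a1, Eef1d and Eef1g passed in no comparison by limma. The J5 score, which has no error term, differed from this for Eef1a1 and Eef1g. For treated against control cells, Eef1a1 scored 43.0, 54.5, 11.7 and 26.9 at 0, 2, 6 and 12 h. Eef1g scored 7.7, 27.6, 3.2 and 21.4. Eef1a1 was thus beyond the J5 threshold at 0, 2 and 12 h and Eef1g at 2 and 12 h. The reason for this difference was not tested.

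Eef2 encodes the translocase of the ribosome. Control arrays read 11.54 and 11.37 at 0 h, 11.33 and 11.23 at 2 h, 11.27 and 11.32 at 6 h, and 11.26 and 11.11 by 12 h. Treated arrays read 11.30 and 11.65, 11.67 and 11.99, 11.90 and 11.70, and 12.17 and 12.18. The treated arrays from 2 h on lay above all control arrays, and the treated duplicates at 0 h spanned the control pair. The difference was 0.55, 0.51 and 0.99 at 2, 6 and 12 h (standard error 0.14 each), and the difference in response at 12 h was 0.96 (standard error 0.20, adjusted p = 0.00336, limma), kept in every other fit. The calls at 2 and 6 h were lost without 2 and 3 of their 4 arrays (adjusted p up to 0.122 and 0.0896) and under mean scaling (0.171 and 0.134).

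Eef1e1 moved opposite to Eef2. Control arrays read 10.55 and 10.65 at 0 h, 10.89 and 11.07 at 2 h, 11.17 and 11.07 at 6 h, and 11.16 and 11.44 by 12 h. Treated arrays read 10.72 and 10.59, 10.89 and 10.99, 10.29 and 10.42, and 10.03 and 10.17. The arms ran together to 2 h and then parted, with the treated arrays at 6 and 12 h below every array at 0 h. Treated minus control cells differed by -0.77 and -1.20 at 6 and 12 h (standard error 0.12 each), 2.30-fold at 12 h (adjusted p = 7.69e-06, limma). Its responses differed by -0.82 and -1.26 (standard error 0.17 each), calls kept in every other fit. Eef1b2, for the catalytic subunit of the eEF1A exchange factor, was higher in treated cells at 2 and 12 h by 0.43 and 0.48, and both calls were lost under mean scaling (adjusted p = 0.358 and 0.134).

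**Figure D4:**
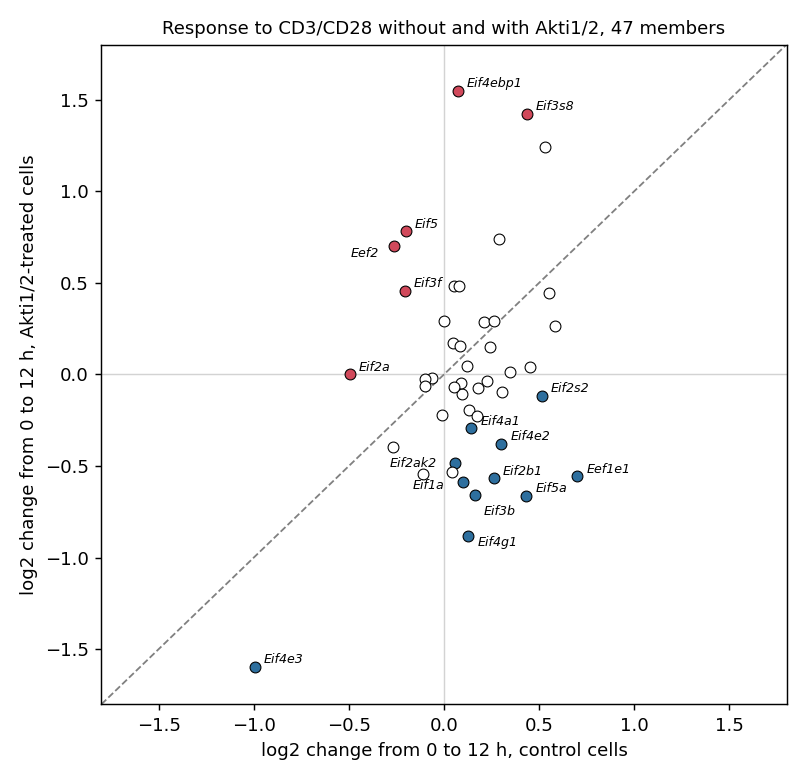
Log2 change from 0 to 12 h of stimulation in Akti1/2-treated cells against that in control cells for the 47 tested members, 1 point per gene and the dashed line at equal change. Filled points are the 17 members whose response differed, 6 higher (red, above the line) and 11 lower (blue, below it). All blue points but Eif4e3 lie at the lower right, above 0 in control and below 0 in treated cells. Eif4e3 lies below 0 in both.

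Eif2c2, now Ago2, the Argonaute that cleaves target RNA, was the tested entry of the Argonaute group. It was 1.07 higher in treated than in control cells at 12 h (standard error 0.19, adjusted p = 6.15e-04, limma), its treated arrays at 7.77 and 7.58 and its control arrays at 6.35 and 6.84. The difference in response at 12 h was 0.71 and did not pass (adjusted p = 0.0673, limma).

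Other genes of translation were taken from a list of 36 (termination and recycling, poly(A)-binding proteins, kinases and phosphatase subunits acting on initiation factors, hypusine and diphthamide synthesis, and mitochondrial factors). Of these, 32 had an entry, 1 of which, Eif6, is described above, and 28 others were tested. The response was higher in 3 and lower in 0 at 2 h, higher in 1 and lower in 2 at 6 h, and higher in 2 and lower in 6 at 12 h. These are 10.7%, 10.7% and 28.6% of the 28, beside 8.40%, 19.5% and 32.5% of all genes. At 12 h in treated against control cells, 6 were higher and 9 lower (53.6%, beside 49.0%).

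The largest rise in that list was Myd116, now Ppp1r15a, which encodes GADD34, the subunit that directs a phosphatase to eIF2. With Akti1/2 its response was higher by 1.14, 1.01 and 2.01 after 2, 6 and 12 h (standard error 0.25 each, adjusted p = 1.15e-04 at 12 h, limma), kept in every other fit at 12 h and lost without 3 of 8 arrays at 2 and 6 h (adjusted p up to 0.0711 and 0.0636). At 2 h Gfm1, for a mitochondrial elongation factor, and Pabpc4, for a poly(A)-binding protein, differed by 0.93 and 0.75, calls lost without 7 and 6 of the 8 arrays (adjusted p up to 0.0911 and 0.15). At 12 h Gfm1 was lower in treated than in control cells, by -0.66 (adjusted p = 0.00393, limma). The lower responses included those of mitochondrial elongation factor genes, Tufm by -0.84 at 12 h and Tsfm by -0.83 at 6 h, and of the mitochondrial release factor gene Mtrf1l by -0.84 at 12 h, the last lost without 6 of the 8 arrays (adjusted p up to 0.141) and that of Tsfm under mean scaling (0.0982).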

How the data were processed

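D10 cells were profiled on Illumina mouse RefSeq arrays. The authors deposited 1 bead intensity per gene and array on a linear scale, without normalization or background subtraction per the file headers, and without detection p-values. A separate table of control probes was not used, since the main table holds them. Intensities were corrected on the 798 negative controls, quantile-normalized with an offset of 16 and put on the log2 scale (neqc, limma 3.58.1, R 4.3.3). The 7395 genes detected (p under 0.01) on 2 or more arrays were fitted in 1 linear model of 8 groups (lmFit, contrasts.fit, eBayes, 8 residual and 4.26 prior degrees of freedom), with Benjamini-Hochberg adjustment per comparison. No replicate or chip term was used, since the methods name none. Groups came from the sample titles.

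Members and gene lists were chosen with earlier results of these data known. Members given in full were a fixed set of 15 and, per role, the 3 largest called differences in response with the same direction in both replicate numbers, and others are named by count or direction. Roles follow symbols, and older symbols were matched through the gene table of GRCm38.p6 (54 of 62 entries had an identifier there). Alternatives covered background correction, scaling, filters, replicate and chip blocks, fewer groups in the fit, the stricter threshold of 0.01, each array left out, and the J5 score of the study's methods (intensities scaled to a common 95th percentile, threshold 20). The study's text states 20 for 2 h and no value for other times, and 20 was used here at every time. The steps were tested on simulated data. Python 3.11.15 (pandas 2.3.3, scipy 1.17.1, numpy 2.4.6) made the tables and matplotlib 3.10.9 the figures. Protein sequences were not used here. The number of arrays limits the precision.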

Additional observations from a re-analysis of the deposited data

Results flagged for a closer look

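The entries here are the 32 calls in which the response to CD3/CD28 with Akti1/2 differed from that without it, by the interaction of inhibitor and time (limma, adjusted p under 0.05). Values are differences in response on the log2 scale, and no explanation was weighed for any of them.

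At 2 h the response was higher for the 4E-BP genes Eif4ebp2 (1.46) and Eif4ebp1 (0.83), for the gene of the eIF2 gamma subunit Eif2s3x (0.95) and for Eif5 (0.79). It was lower for the cap-binding protein gene Eif4e2 (-0.89). Of these 5 calls, that of Eif4ebp2 was kept in every other fit.

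At 6 h it was higher for Eif4ebp1 (1.63), Eif5 (1.08) and Eif3s8 (0.56). It was lower for Eif4e2 (-0.86) and Eif4el3 (-0.63), which are entries of the same gene. It was also lower for Eef1e1 (-0.82), Eif5a (-0.67), Eif2ak2 (-0.66), Eif4a1 (-0.54) and Eif2b1 (-0.48). Of these 10 calls, 4 were kept in every other fit.

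At 12 h it was higher for Eif4ebp1 (1.47), Eif3s8 (0.99), Eif5 (0.98), Eef2 (0.96), Eif3f (0.66) and Eif2a (0.50). It was lower for Eef1e1 (-1.26), Eif5a (-1.10), Eif4g1 (-1.01), Eif2b1 (-0.83) and Eif3b (-0.82). The other lower genes were Eif1a (-0.69), Eif4e2 (-0.68), Eif2s2 (-0.63), Eif4e3 (-0.60), Eif2ak2 (-0.54) and Eif4a1 (-0.44). Of these 17 calls, 8 were kept in every other fit.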

How the results depend on the processing

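Of 155 calls of members, 70 were kept in every other fit, 72 were lost without some array and 70 under another setting, and none turned direction. Scaling the arrays to the same mean log2 gave, after stimulation for 2 and 6 h, 0 and 4 members changed in control cells and 10 and 6 in treated cells, and a response that differed in 1, 4 and 9 members at 2, 6 and 12 h. Fitting only the groups compared gave 0 and 6 changed at 2 and 6 h in control cells, 6 and 9 that differed between treated and control cells at 2 and 6 h, and 6 with a different response at 6 h. An adjusted p under 0.01 gave 0 and 5 in control cells and 7 and 6 in treated cells at 2 and 6 h, 6 and 10 between treated and control cells at 2 and 6 h, and 2, 5 and 11 for the response at 2, 6 and 12 h. The J5 score beyond 20 gave 3 and 2 in control cells at 6 and 12 h, 4, 3 and 3 in treated cells at 2, 6 and 12 h, and 2, 3, 3 and 6 between treated and control cells at 0, 2, 6 and 12 h. Quantile normalization without background correction gave 5 changed at 2 h in control cells and 8 with a different response at 2 h. At 2 h in control cells, 2 members passed with genes above background on all 16 arrays, and 0 with no filter, with the replicate block or with the chip block.

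With each array left out in turn, 0 to 0, 4 to 6 and 6 to 7 members passed in control cells at 2, 6 and 12 h, and 8 to 14, 5 to 13 and 15 to 21 in treated cells. Between treated and control cells, 0 to 0, 6 to 12, 10 to 20 and 20 to 22 passed at 0, 2, 6 and 12 h, and 3 to 6, 5 to 10 and 11 to 15 for the response at 2, 6 and 12 h. The causes were not tested. Deviations of arrays with the same replicate number correlated at -0.296 to 0.264 (median 0.017) over 28 pairs of groups, with 7 pairs above 0.1. Arrays with the same number also share a chip, except in control cells at 12 h. Paired by chip, the median was 0.027, with 8 pairs above 0.1. What else such arrays share was not tested. With the replicate block, 0, 13 and 9 members passed in control cells, 17, 10 and 20 in treated cells, 0, 12, 20 and 25 between them and 5, 10 and 15 for the response. Genes near the negative controls, such as Eif4e, are limited by signal over background.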
